A study of Mus musculus with 2 samples.

Results

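Chromatin modifying enzymes, the proteins that place or remove chemical marks on DNA and histones, were described in mouse lymphocytes polarized in culture towards the Th17 or the Th1 fate, each set against Th0 cells. The genes were chosen by symbol. They are those whose single annotated symbol starts with Hdac, Sirt, Kdm, Kmt, Setd, Prdm, Prmt or Kat and a digit, with the named DNA methyltransferases, TET enzymes, polycomb genes, further histone methyltransferases, Ep300 and Crebbp. Of the 17501 named genes of the arrays, 85 met this rule, and 20 more symbols that fit it were not analysed here. The 85 comprised 39 writers, which add a mark, 37 erasers, which remove one, 7 genes of the PRDM family, and Eed and Suz12, partners without catalytic activity in the polycomb complex PRC2.

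One two-colour array held RNA of Th17-polarized lymphocytes in Cy5 and 1 held RNA of Th1-polarized lymphocytes in Cy5. Both carried RNA of Th0-polarized lymphocytes in Cy3. The labels give a TRP-1 mouse as the source of all 3 populations, the name used for mice with T cells specific for a melanoma antigen. Neither the number of animals, their age nor the time in culture was given in the sources used here. There was 1 array per comparison, without a replicate or a dye swap, so no value below has a test, and the number of arrays limits the precision.

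Writers and erasers set how accessible a gene is. Acetyltransferases add acetyl groups to histones, which loosens chromatin, and deacetylases and sirtuins take them off. Lysine and arginine methyltransferases mark active or silent genes depending on the residue, and demethylases reverse lysine methylation. DNA methyltransferases silence genes by methylating cytosine, and TET enzymes oxidise that mark. In helper T cells such enzymes are known for opening the cytokine genes of one fate and closing those of the others, with PRC2 restraining the genes of rival fates.

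Each value is a log2 ratio as deposited, in which 1 is a 2-fold difference. The Th17 ratio below is that of the Th17 and Th0 array, the Th1 ratio that of the Th1 and Th0 array, and the difference is the Th17 ratio minus the Th1 ratio. As titled, a positive ratio means higher expression in the polarized cells. The lineage genes lie against that reading. Il17a and Il17f, the cytokine genes of Th17 cells, had Th17 ratios of −5.37 and −2.38, and Ifng and Tbx21, the cytokine and the master regulator of Th1 cells, had Th1 ratios of −2.02 and −1.25. Signs are therefore given as deposited, as the negative side, where these genes lay, or the positive side, and with the sign turned each side means the opposite. Neither reading alters a size or a count. The difference also assumes a common Th0 RNA on the arrays, on which the labels are silent.

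The zero point is uncertain as well. Centring the arrays on the median of all probes shifts every Th17 ratio by 0.05, every Th1 ratio by 0.11 and every difference by −0.07. Centring on 13 widely expressed control genes shifts them by 0.02, −0.25 and 0.27, and centring on each array's most repeated value, at which both channels may have equal signals, by 0.43, 0.85 and −0.42. A repeat measurement exists only between different probes of a gene. The pooled SD between probes of the 43 members with 2 to 6 probes was 0.41 for the Th17 ratio, 0.44 for the Th1 ratio and 0.49 for the difference, and the other 42 members had 1 probe each. Among those 43, the probes lay on both sides of 0 for 29 members in the Th17 ratio and for 15 in the Th1 ratio.

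Markers of other cells moved on the same arrays. Of 15 myeloid markers, 10 lay above 0 in the Th17 ratio (median 0.79) and 15 in the Th1 ratio (median 1.57). Of 10 pan T cell genes, 8 lay below 0 in the Th17 ratio (median −0.71) and 10 in the Th1 ratio (median −0.61, which turns to 0.24 when centred on the most repeated value). The 7 B cell markers had medians of 0.14 and −0.16. The part of these cells in the values below was not tested, and fewer cells of a type cannot be told apart from less RNA per cell.

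Sides and counts below are for the values as deposited unless a centring is named. As deposited, the median over the 85 members was 0.03 for the Th17 ratio, against −0.03 over all named genes, and 0.03 for the Th1 ratio, against −0.08. In the Th17 ratio 4 members were at least 2-fold apart (4.71% of members), of which 1 was negative and 3 were positive, where 8.42% of all named genes were that far apart, 5.52% negative and 2.9% positive. In the Th1 ratio 6 members were (7.06%), 3 on each side, where the share of all named genes was 10.2%, with 6.92% negative and 3.27% positive. In the difference 1 member was (1.18%), on the positive side, where 8.14% of all named genes were, 3.61% negative and 4.53% positive. Over both sides, the members' share as deposited was below the background in each comparison. Centring on the most repeated value alters this in the Th1 ratio alone. The median of the members was then 0.46 in the Th17 ratio, against 0.39 over all named genes, and 0.88 in the Th1 ratio, against 0.77. In that centring 6 members (7.06%) were at least 2-fold positive in the Th17 ratio, where 8.17% of all named genes were, and 37 (43.5%) in the Th1 ratio, where 29.8% were. It left 0 members at least 2-fold negative in either ratio, where 2.78% and 1.7% of all named genes were. In the difference 6 members (7.06%) were at least 2-fold negative and 1 (1.18%) positive, where 9.49% and 2.11% of all named genes were. Centring on control genes instead made 5 members at least 2-fold negative in the Th1 ratio (5.88%), where 11.6% of all named genes were.

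As deposited, most sizes were under 0.5. Sizes of at least 0.5 on the log2 scale were found for 9 members in the Th17 ratio (10.6%, against 25.5% of all named genes) and for 23 in the Th1 ratio (27.1%, against 31.9%). The interquartile range of the members was 0.42 in the Th17 ratio and 0.64 in the Th1 ratio, and that of all named genes 0.52 and 0.61. The difference reached 0.5 for 16 members (18.8%, against 25.5%). At least 1.5-fold apart were 2 negative and 5 positive members in the Th17 ratio, where 13.0% and 7.88% of all named genes were. In the Th1 ratio 7 and 10 members were, where 16.5% and 9.49% of all named genes were, and in the difference 6 and 4, where 9.33% and 11.2% were.

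Writers lay slightly above erasers on both arrays. The median of the 39 writers was 0.06 in the Th17 ratio and 0.09 in the Th1 ratio, and that of the 37 erasers −0.03 and −0.07. The gap between the 2 medians was 0.09 on the Th17 and Th0 array and 0.16 on the Th1 and Th0 array. Centring shifts all genes of an array alike, so it cannot alter this gap. Without probes that may be dim, as defined below, the gap was 0.04 and 0.19. The pooled SD between probes of a member was 0.41 and 0.44, which is a spread of single probes and not of a gap between medians. Between genes, the interquartile range was 0.31 and 0.53 for writers and 0.42 and 0.54 for erasers in the Th17 and Th1 ratio. In the difference the gap was −0.09, with medians of −0.05 for writers and 0.05 for erasers. The sides of the medians themselves are not settled: those of erasers turned positive in both ratios when centred on the median of all probes, and that of writers turned negative in the Th1 ratio when centred on control genes. Of the writers, 1 was at least 2-fold apart in either ratio (2.56%), the same gene in both. Of the erasers 1 was in each ratio (2.7%), a different gene each time. The shares of all named genes were 8.42% in the Th17 ratio and 10.2% in the Th1 ratio.

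**Figure D1:**
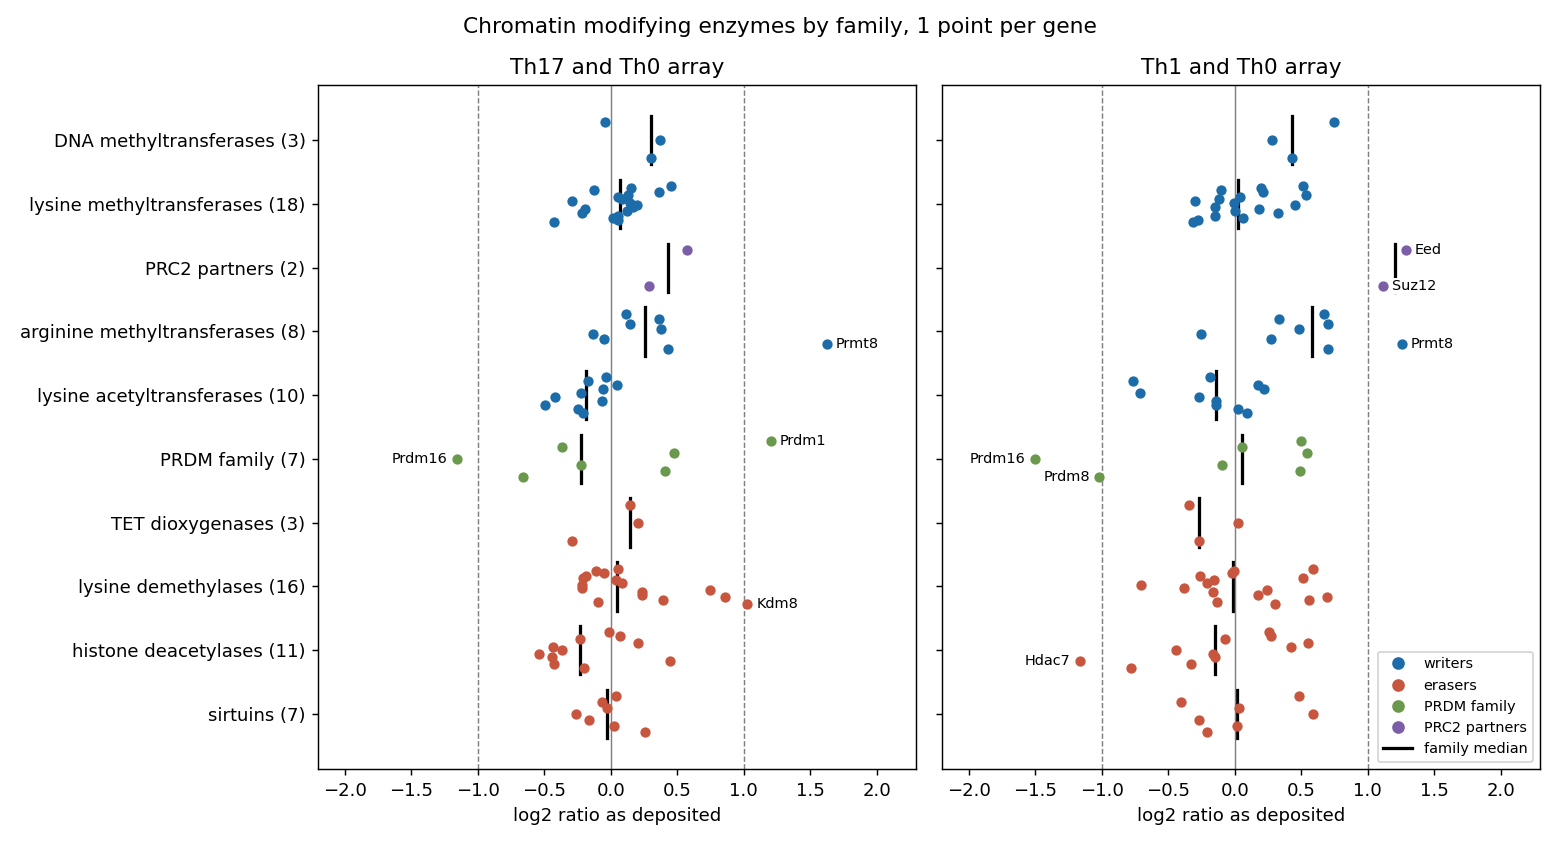
Log2 ratios as deposited of the 85 chromatin modifying enzymes by family, on the Th17 and Th0 array (left) and the Th1 and Th0 array (right), 1 point per gene, with the family median as a black bar, dashed lines at a 2-fold difference and the number of genes in parentheses. Most genes sit within the dashed lines, and the 4 genes beyond them on the left and the 6 on the right are named.

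On the Th1 and Th0 array 3 of the 85 members were at least 2-fold positive, where 3.27% of all named genes were. Of these members, 2 belonged to PRC2, which methylates lysine 27 of histone H3 to silence genes. Suz12, which stabilises the complex, had a Th17 ratio of 0.29 and a Th1 ratio of 1.12 (2.17-fold), a difference of −0.83. Eed, which binds the finished mark, had a Th17 ratio of 0.57 and a Th1 ratio of 1.29 (2.44-fold), a difference of −0.72. Both lay on the positive side of both arrays and further out in the Th1 than in the Th17 ratio. Centring on control genes brings the Th1 ratio of Suz12 to 0.87, under 2-fold. Each gene had 1 probe, and that of Eed may be dim: its ratio matched channel signals of 2 and 1 units in lowest terms on the Th17 and Th0 array, and of 22 and 5 units on the Th1 and Th0 array.

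The catalytic subunits differed less. Ezh2, the methyltransferase of dividing cells, had a Th17 ratio of 0.13 and a Th1 ratio of 0.53, a difference of −0.40. Its 2 probes gave 0.39 and −0.13 in the Th17 ratio and 0.97 and 0.10 in the Th1 ratio, so both had the higher value on the Th1 and Th0 array. Ezh1, its relative in resting cells, had a Th17 ratio of 0.37 and a Th1 ratio of 0.21, a difference of 0.15. Thus 3 of these 4 PRC2 genes had a negative difference and Ezh1 a small positive one. Of all named genes, 46.1% had a negative difference, as did 11 of the 13 control genes (84.6%). The sign of Ezh2, Eed and Suz12 stayed negative under each centring, and that of Ezh1 turned negative when centred on the most repeated value.

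The start regions of these 4 genes are shown because they encode 1 complex and 3 of them shared a direction. The sequences are RefSeq windows of GRCm38.p6 from 250 bases before to 50 after the gene start, 5′ to 3′ on the gene's strand: Suz12 at chr11:79992856-79993155 (plus strand), Eed at chr7:89980927-89981226 (minus strand), Ezh2 at chr6:47594981-47595280 (minus strand) and Ezh1 at chr11:101226414-101226713 (minus strand). Capitals mark matches, on either strand, to TTCCCGC or TTTGGCGC, words bound by the E2F factors of the cell cycle, or to CCAAT, the word of the factor NF-Y.
Suz12: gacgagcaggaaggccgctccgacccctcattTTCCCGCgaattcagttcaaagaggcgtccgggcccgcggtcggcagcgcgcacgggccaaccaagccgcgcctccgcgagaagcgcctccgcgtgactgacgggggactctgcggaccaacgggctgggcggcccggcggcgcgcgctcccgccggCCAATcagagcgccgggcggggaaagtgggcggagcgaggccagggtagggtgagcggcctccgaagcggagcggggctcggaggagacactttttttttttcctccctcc
Eed: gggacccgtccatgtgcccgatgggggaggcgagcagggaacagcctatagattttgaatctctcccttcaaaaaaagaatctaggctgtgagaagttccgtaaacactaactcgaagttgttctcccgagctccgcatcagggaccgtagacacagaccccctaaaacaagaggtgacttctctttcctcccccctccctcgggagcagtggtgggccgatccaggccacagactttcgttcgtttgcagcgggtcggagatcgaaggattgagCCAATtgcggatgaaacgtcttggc
Ezh2: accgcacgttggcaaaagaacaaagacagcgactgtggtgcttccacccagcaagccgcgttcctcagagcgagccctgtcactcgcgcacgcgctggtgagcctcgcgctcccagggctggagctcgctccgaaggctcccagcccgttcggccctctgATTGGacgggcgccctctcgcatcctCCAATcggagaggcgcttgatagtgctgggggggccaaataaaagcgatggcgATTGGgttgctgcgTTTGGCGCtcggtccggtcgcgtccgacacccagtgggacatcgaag
Ezh1: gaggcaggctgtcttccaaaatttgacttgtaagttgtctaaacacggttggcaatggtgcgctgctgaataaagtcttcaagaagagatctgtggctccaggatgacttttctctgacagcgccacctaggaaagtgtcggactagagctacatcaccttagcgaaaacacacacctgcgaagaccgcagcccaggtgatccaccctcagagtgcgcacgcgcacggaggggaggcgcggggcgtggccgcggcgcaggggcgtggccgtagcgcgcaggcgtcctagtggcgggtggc
Suz12 held 1 match to TTCCCGC, 218 bases before the start, and 1 to CCAAT, 61 before it. Eed held 1 match to CCAAT, at base 26 after the start. Ezh2 held TTTGGCGC from base 4 after the start and 3 matches to CCAAT, at 90, 64 and 11 bases before the start, and no match overlapped another. The window of Ezh1 held none of the 3 words. Of all 32851 windows, 4.6% held TTCCCGC, 0.514% TTTGGCGC and 37.4% CCAAT. Of the 103 windows of 75 members, 8 (7.77%), 2 (1.94%) and 43 (41.7%) did. These matches describe letters and show no binding.

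Genes that work with PRC2 were read from a list of complex partners. Phf19, which recruits the complex, had a Th17 ratio of −0.84 and a Th1 ratio of 0.53, a difference of −1.37, and Rbbp7, a histone-binding subunit, −0.51 and 0.41, a difference of −0.92. Its near copy Rbbp4 had a Th17 ratio of 0.18 and a Th1 ratio of 0.25. The accessory genes Mtf2 (0.34 and 0.40), Phf1 (0.02 and −0.08), Jarid2 (−0.18 and −0.27) and Aebp2 (−0.78 and −0.40) lay closer together between the arrays in Th17 and Th1 ratio. As deposited, Phf19 was the only 2-fold difference among these 7 listed genes, where 8.14% of all named genes had one.

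Proliferation genes had the same order. Of 24 cell cycle genes, 22 (91.7%) had a negative difference, where 46.1% of all named genes and 84.6% of the control genes did. The median difference was −0.64 over cell cycle genes, 0.04 over all named genes and −0.20 over the control genes. The median of the cell cycle genes was −0.29 in the Th17 ratio and 0.23 in the Th1 ratio. The second turned to −0.02 when centred on control genes. In that centring the median difference of cell cycle genes was −0.37 and that of Eed and Suz12 −0.50. The cell cycle genes with a positive difference as deposited were Mki67, at 0.69, and Pcna, at 0.18. The part of proliferation in the PRC2 values was not tested.

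**Figure D2:**
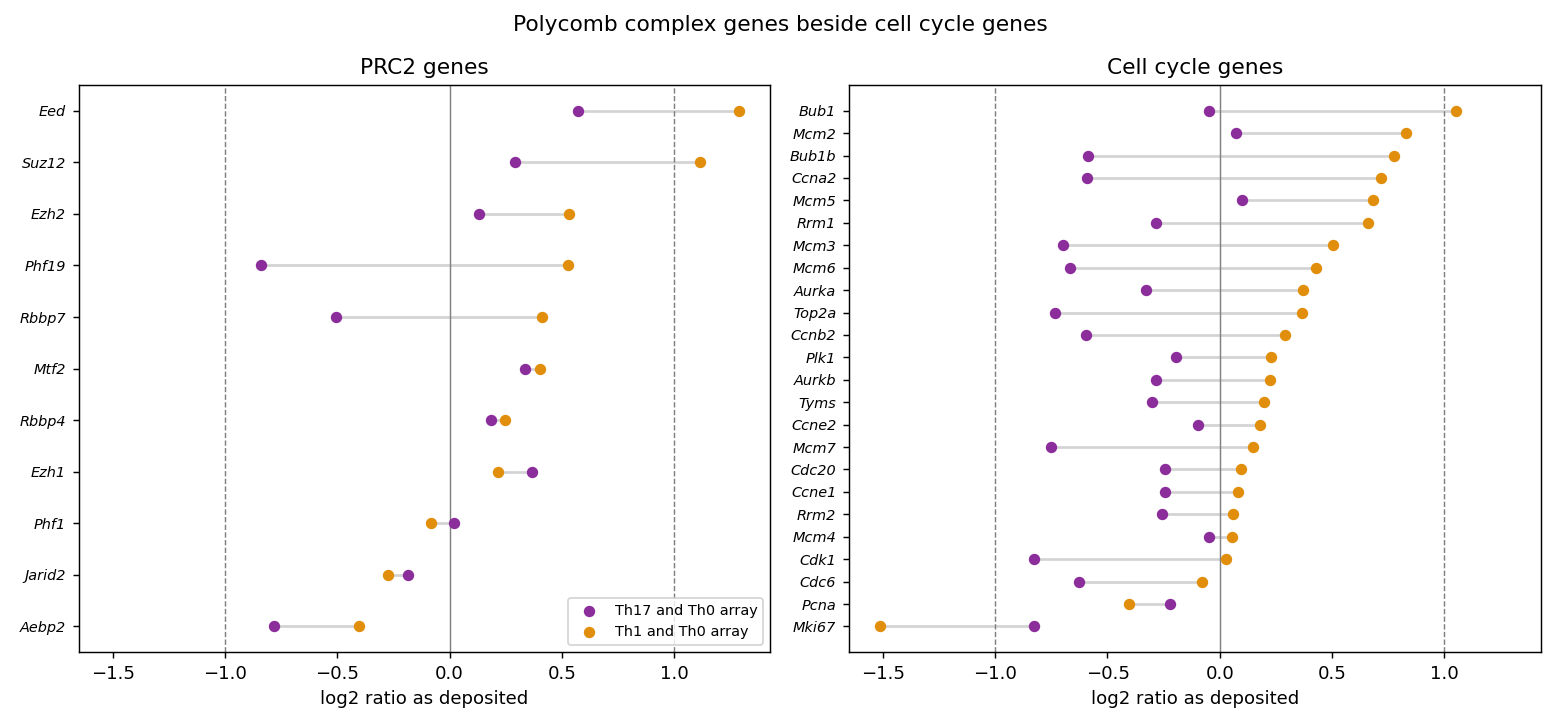
Log2 ratios as deposited of PRC2 core and accessory genes (left) and of cell cycle genes (right), with the Th17 and Th0 array in purple, the Th1 and Th0 array in orange, a grey line joining the 2 values of a gene and dashed lines at a 2-fold difference. The orange point lies to the right of the purple one for Eed, Suz12, Ezh2, Phf19, Rbbp7, Aebp2, Mtf2 and Rbbp4. It also does for 22 of the 24 cell cycle genes, all but Mki67 and Pcna.

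Among DNA methyltransferases, Dnmt1 differed most between the arrays. Dnmt1, which copies methylation after replication, had a Th17 ratio of −0.04 and a Th1 ratio of 0.75, a difference of −0.79 on 1 probe. Dnmt3a, which sets new methylation, had a Th17 ratio of 0.37 and a Th1 ratio of 0.28 and so lay at nearly the same place on both. Dnmt3b, the other de novo enzyme, had ratios of 0.31 and 0.43, but its 2 probes disagreed, at 0.94 and −0.33 in the Th17 ratio and 0.96 and −0.09 in the Th1 ratio. The sole negative value among the 3 genes was the Th17 ratio of Dnmt1, which turns positive when centred on the median of all probes or on the most repeated value, and all 3 Th1 ratios stayed positive under each centring.

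The 3 TET genes, which undo DNA methylation, had medians of 0.15 in the Th17 ratio and −0.27 in the Th1 ratio as deposited, and of 0.57 and 0.58 when centred on the most repeated value. Tet1 had a Th17 ratio of 0.15 and a Th1 ratio of −0.34, a difference of 0.49. Tet2, the main TET gene of blood cells, had ratios of 0.20 and 0.02, and Tet3 ratios of −0.29 and −0.27 over 3 probes that ran from −0.70 to 0.10 in the Th17 ratio.

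As deposited, 0 of the 18 lysine methyltransferases were 2-fold apart in any comparison, against 8.42%, 10.2% and 8.14% of all named genes. Centring on the most repeated value put 7 of the 18 at least 2-fold positive in the Th1 ratio. In that ratio and centring, 29.8% of all named genes were. The family median as deposited was 0.07 in the Th17 ratio, with values from −0.42 to 0.45. In the Th1 ratio it was 0.02, with values from −0.31 to 0.53. Suv39h2, which methylates lysine 9 of histone H3 in silent chromatin, had −0.42 and −0.31, but its 2 probes lay apart, at −0.12 and −0.72 in the Th17 ratio and 0.18 and −0.80 in the Th1 ratio. The highest were Dot1l, the lysine 79 methyltransferase, at 0.45 in the Th17 ratio (0.51 in the Th1 ratio), and Ezh2 in the Th1 ratio.

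Further members of the family include enzymes that act at lysine 4 or lysine 9 of histone H3. Kmt2a, which methylates lysine 4 of histone H3 at active promoters, had a Th17 ratio of 0.06 and a Th1 ratio of 0.04, and its relative Kmt2b had 0.09 and −0.12. Kmt2c, which acts at enhancers, had −0.29 and −0.30, and Setd1a, another lysine 4 enzyme, 0.12 and 0.00. Kmt2e, counted among the writers by its symbol alone, had 0.15 and −0.01. The lysine 9 pair Ehmt1 and Ehmt2 had Th17 ratios of 0.15 and −0.12 and Th1 ratios of 0.20 and −0.10, a difference of −0.05 and −0.02.

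The lysine 20 enzymes of histone H4 did not share a direction, with differences of −0.26 for Kmt5a, 0.32 for Kmt5b and −0.37 for Kmt5c. Kmt5a, which adds the first methyl group and works in dividing cells, had a Th17 ratio of 0.20 and a Th1 ratio of 0.45. Kmt5b and Kmt5c, which add further groups, had Th17 ratios of 0.17 and −0.19 and Th1 ratios of −0.15 and 0.18. Setd3, an enzyme known for methylating actin, had the most negative difference of the family, −0.54, with a Th17 ratio of −0.21 (SD 0.09 between its 2 probes) and a Th1 ratio of 0.33 (SD 0.05). Setd7 had the most positive one, 0.34, with 0.06 and −0.28, while Setd4 had 0.06 and −0.15 and Setd5 0.02 and 0.06.

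Arginine methyltransferases lay on the positive side as a family. Of 8 genes, 6 lay above 0 in the Th17 ratio and 7 in the Th1 ratio, where 46.3% and 42.6% of all named genes did. Their median was 0.26 in the Th17 ratio and 0.58 in the Th1 ratio, and both medians stayed positive under each centring, at 0.33 in the Th1 ratio with control genes at 0. Prmt8, a membrane-bound enzyme known from the brain, was furthest out, with a Th17 ratio of 1.63 (3.09-fold) and a Th1 ratio of 1.26 (2.39-fold). As deposited, it was the only writer at least 2-fold apart in either ratio, and it had 1 probe.

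Prmt1, the main arginine methyltransferase of most cells, had a Th17 ratio of 0.11 and a Th1 ratio of 0.68, a difference of −0.56. Prmt3, which modifies a ribosomal protein, had 0.15 and 0.70, a difference of −0.55, and Prmt9, which modifies a splicing factor, 0.43 and 0.70. As deposited, Prmt1 and Prmt3 thus lay near 0 in the Th17 ratio and on the positive side in the Th1 ratio. Prmt5, the main enzyme of symmetric dimethylation, had ratios of 0.38 and 0.48, Prmt2 of 0.36 and 0.33, Prmt7 of −0.05 and 0.27, and Prmt6, the lowest, of −0.13 and −0.25.

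Of 10 lysine acetyltransferases, 9 lay below 0 in the Th17 ratio, where 53.7% of all named genes did, with a median of −0.19, a lowest value of −0.50 and a highest of 0.04. The median stayed negative when centred on the median of all probes or on control genes and turned to 0.24 when centred on the most repeated value. Kat6b, which acetylates lysine 23 of histone H3, was lowest at −0.50, with 4 of its 5 probes below 0, and Kat5, the Tip60 enzyme of DNA repair, had −0.42. In the Th1 ratio the family median was −0.14, with 6 of 10 genes below 0, close to the 57.4% of all named genes, and it too turned positive in the last centring. In this ratio Kat6b and Kat5 had −0.14 and −0.27.

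Ep300 and Kat2b, coactivators of transcription, had a positive difference under each centring. Ep300, the p300 acetyltransferase that marks active enhancers, had a Th17 ratio of −0.17 and a Th1 ratio of −0.77, a difference of 0.60. This rested on 1 of its 2 probes, which differed by 1.16 between the arrays and may be dim on the Th17 and Th0 array, while the other differed by 0.03. Its close relative Crebbp had −0.03 and −0.19 over 3 probes. Kat2b, also called PCAF, had −0.22 and −0.71, a difference of 0.49 with a positive difference at each of its 3 probes. Kat2a, the Gcn5 enzyme, had −0.06 and 0.22, a difference of −0.28. The 2 probes of Kat2a differed by −0.01 and −0.54 between the arrays, and centring on control genes brought its difference to −0.002.

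Kat7, which prepares origins of replication, had a Th17 ratio of −0.25 and a Th1 ratio of 0.03. Its 2 probes lay on opposite sides, at 0.34 and −0.84 in the Th17 ratio and 0.49 and −0.43 in the Th1 ratio, and the second may be dim on the Th1 and Th0 array. Kat8, which acetylates lysine 16 of histone H4, had −0.21 and 0.09, Kat6a −0.07 and −0.14, and Kat14 0.04 and 0.17. The difference of Kat8 was −0.30.

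As deposited, histone deacetylases held the only member with a 2-fold difference between Th17 and Th1. Hdac7, a class II enzyme known for its part in T cell development, had a Th17 ratio of 0.45 and a Th1 ratio of −1.16 (2.24-fold), a difference of 1.61 (3.05-fold). Its 2 probes did not agree. One gave 0.84 and −2.31, a difference of 3.15, and its Th1 ratio matched channel signals of 11 and 4 units in lowest terms. The other gave 0.05 and −0.02, a difference of 0.07. Without possibly dim probes, Hdac7 was not 2-fold apart in any comparison, and 0 of the 83 members then measured had a 2-fold difference, where 3.4% of all named genes were negative and 3.84% positive.

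The class I deacetylases, which act in the main corepressor complexes, had negative differences, although those of Hdac1 and Hdac8 turn positive when centred on control genes. Hdac1 had a Th17 ratio of −0.01 and a Th1 ratio of 0.26, and Hdac2 had 0.21 and 0.55. Hdac3, the enzyme of the NCoR complex, had −0.43 and 0.42, a difference of −0.85, the most negative of all 85 members. Its probes gave differences of −1.51 and −0.19, so the sign held at both and the size rested on 1. Hdac8, the fourth class I gene, had −0.43 and −0.33 on 1 probe whose Th17 ratio equalled the most repeated value, where both channels may be at the same low signal.

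Of the class II and IV enzymes, Hdac5 had a Th17 ratio of −0.54, the lowest of the family, and a Th1 ratio of −0.17, with both of its probes below 0 on each array. Hdac4 had −0.37 and −0.44, Hdac6, the tubulin deacetylase, −0.44 and −0.14, and Hdac11 −0.23 and −0.07, while Hdac10 had 0.07 and 0.28. Hdac9, a class II gene, had −0.20 and −0.78, a difference of 0.58. All 6 of its probes lay below 0 in the Th1 ratio, from −2.02 to −0.34, and 3 of the 6 may be dim on at least 1 array. Of the 11 deacetylases, 8 lay below 0 in the Th17 ratio (median −0.23) and 7 in the Th1 ratio (median −0.14), where 53.7% and 57.4% of all named genes did, medians that stayed negative when centred on control genes or on the median of all probes and turned positive when centred on the most repeated value.

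**Figure D3:**
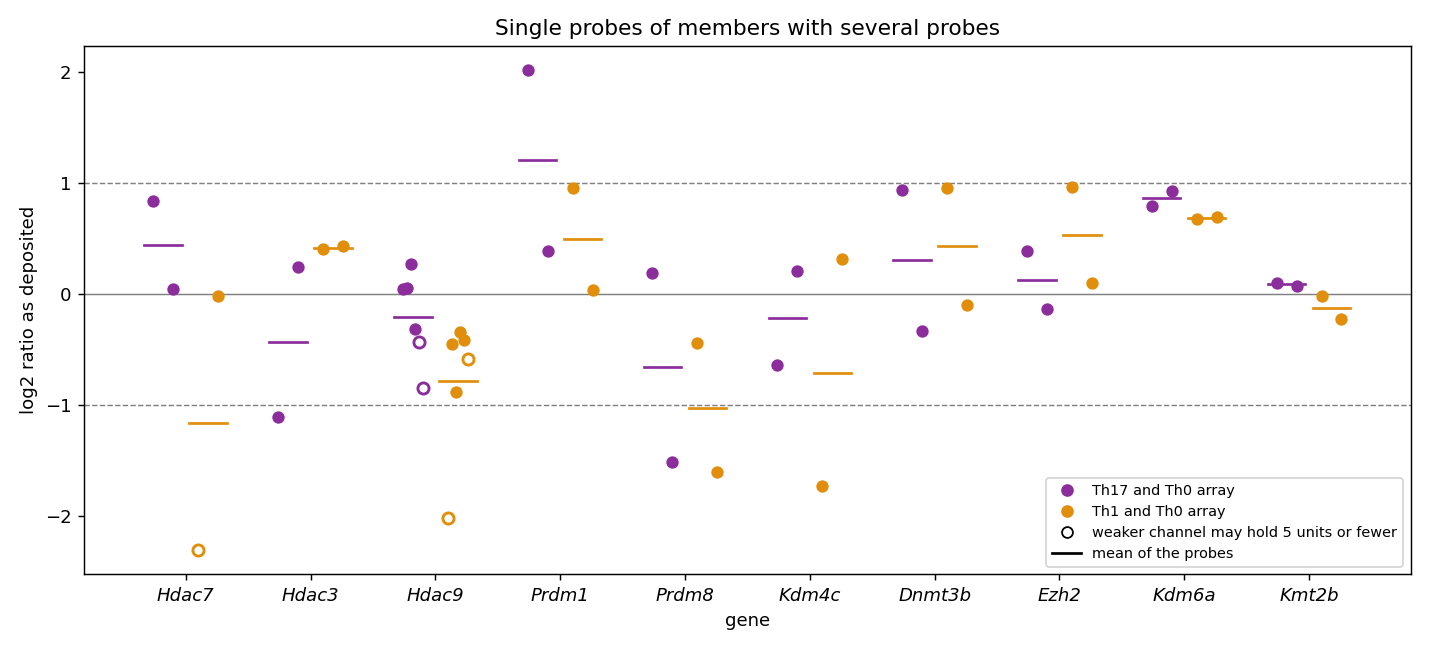
Log2 ratios as deposited of the single probes of 10 members with several probes, with the Th17 and Th0 array in purple left of the Th1 and Th0 array in orange, horizontal bars at the mean of the probes and open circles where the weaker channel may hold 5 units or fewer. The 2 probes of Hdac7 lie at −2.31 and −0.02 in the Th1 ratio, while those of Kdm6a and Kmt2b lie close together.

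The sirtuins, deacylases that use NAD, had no member 2-fold apart in any comparison as deposited, against 8.42%, 10.2% and 8.14% of all named genes. Centring on the most repeated value put Sirt4 at 1.44 and Sirt1 at 1.33 in the Th1 ratio, where 29.8% of all named genes were as far on the positive side, and the difference of Sirt4 at −1.27, where 9.49% were as far on the negative side. As deposited, Sirt4, a mitochondrial enzyme, had a Th17 ratio of −0.26 and a Th1 ratio of 0.59, a difference of −0.85 on 1 probe. Sirt1, the best known nuclear sirtuin, had 0.04 and 0.48, a difference of −0.44, and Sirt7, a nucleolar enzyme, 0.26 and −0.21, a difference of 0.47. Sirt2 had −0.06 and −0.41, and Sirt3, Sirt5 and Sirt6 differed by −0.06, 0.10 and 0.01 between the arrays. The family thus held differences of both signs, with a median of 0.01.

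As deposited, 1 of the 16 lysine demethylases was past 2-fold, in the Th17 ratio, where 8.42% of all named genes were. This was Kdm8, at a Th17 ratio of 1.03 (2.04-fold) and a Th1 ratio of 0.31, a difference of 0.72 on 1 probe. Kdm8 is a JmjC protein whose demethylase activity is disputed. Kdm6a and Kdm6b remove the mark that PRC2 writes. Kdm6a had 0.86 and 0.69, with 2 probes at 0.80 and 0.93 in the Th17 ratio and at 0.68 and 0.70 in the Th1 ratio, so its probes agreed closely. Kdm6b, known for its part in T helper fate, had 0.40 and 0.56 on 1 probe. Both lay on the positive side of both arrays under each centring.

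Other demethylases differed between the arrays. Kdm3a, which acts on lysine 9 of histone H3, had a Th17 ratio of −0.21 and a Th1 ratio of 0.51, a difference of −0.72. Kdm1a, the LSD1 enzyme, had 0.06 and 0.59, a difference of −0.53, and its relative Kdm1b −0.11 and 0.00 over 4 probes. The lysine 4 demethylase Kdm5b had 0.75 and 0.24, a difference of 0.50, and Kdm5c 0.24 and −0.17, a difference of 0.40, while Kdm5d, on the Y chromosome, had 0.24 and 0.18. Kdm5b and Kdm5c thus had the opposite order to Kdm3a and Kdm1a, except that the difference of Kdm5c turns negative when centred on the most repeated value.

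The Kdm4 genes, erasers at lysines 9 and 36 of histone H3, had positive differences throughout. Kdm4a had a Th17 ratio of 0.04 and a Th1 ratio of −0.15, Kdm4b 0.09 and −0.21, and Kdm4d −0.22 and −0.38. Kdm4c had −0.21 and −0.71, but its 2 probes lay at −0.63 and 0.21 in the Th17 ratio and at −1.73 and 0.31 in the Th1 ratio, with differences of 1.10 and −0.11. All 4 differences, from 0.16 to 0.49, stayed positive when centred on control genes or on the median of all probes, and when centred on the most repeated value that of Kdm4c alone did. Kdm2b and Kdm7a had differences of 0.08 and 0.05 over 4 probes each, which lay on both sides of 0, and the 2 probes of Kdm2a gave differences of 0.18 and −0.23, the second possibly dim on the Th1 and Th0 array. Over the 16 demethylases, 11 had a positive difference (median 0.12), where 53.9% of all named genes did, and this median turned to −0.30 when centred on the most repeated value.

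**Figure D4:**
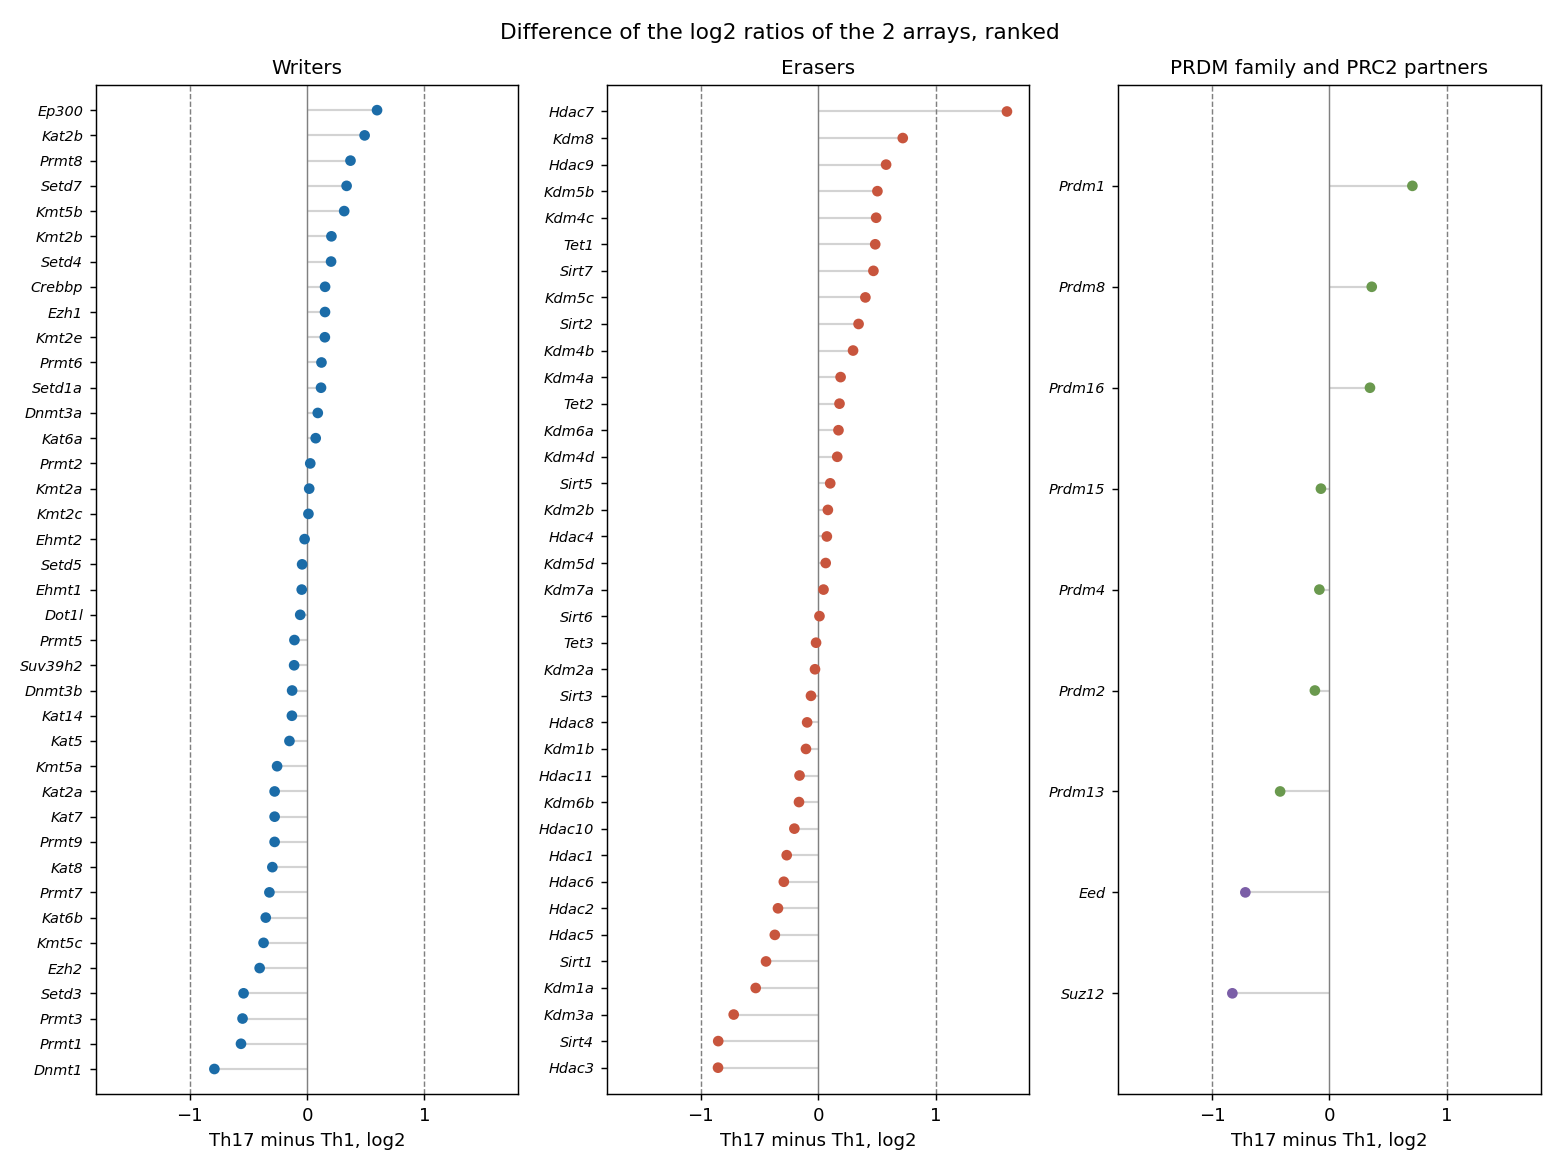
Difference of the log2 ratios (Th17 minus Th1) for each of the 85 members, ranked within writers, erasers, and the PRDM family with the PRC2 partners, with dashed lines at a 2-fold difference. Hdac7 at 1.61 is the only point beyond a dashed line, and Hdac3, Sirt4, Suz12, Dnmt1, Kdm3a and Eed form the negative end.

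The PRDM family, zinc finger factors with a PR domain of which only some are methyltransferases, had the widest interquartile range of all families, 0.95 in the Th17 ratio and 1.05 in the Th1 ratio. Of its 7 genes, 2 were at least 2-fold apart in each ratio (28.6%), where 8.42% and 10.2% of all named genes were. Prdm1, which encodes Blimp-1, a repressor active in effector T cells and plasma cells, had a Th17 ratio of 1.21 (2.31-fold) and a Th1 ratio of 0.50, a difference of 0.71. Its 2 probes agreed in side and not in size, at 2.02 and 0.39 in the Th17 ratio and 0.96 and 0.04 in the Th1 ratio.

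Prdm16, a regulator known from brown fat and blood stem cells, lay on the negative side with a Th17 ratio of −1.16 (2.23-fold) and a Th1 ratio of −1.50 (2.84-fold), on 1 probe. Prdm8, known from neurons and retina, had −0.66 and −1.02 (2.03-fold). Its probes gave 0.19 and −1.51 in the Th17 ratio and −0.44 and −1.60 in the Th1 ratio, and centring on the median of all probes brought its Th1 ratio to −0.91. Centring on the most repeated value left neither gene 2-fold apart, with −0.73 and −0.66 for Prdm16 and −0.23 and −0.17 for Prdm8. Prdm4 and Prdm15 lay on the positive side of both arrays, at 0.41 and 0.49 for Prdm4 and 0.48 and 0.55 for Prdm15. Prdm2 had −0.22 and −0.10 and Prdm13, a neural factor, −0.36 and 0.06.

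Genes outside the symbol rule were read from 3 lists. As deposited, 0 of 26 other writers and erasers were 2-fold apart in any comparison, against 8.42%, 10.2% and 8.14% of all named genes. When centred on the most repeated value, 2 were at least 2-fold positive in the Th17 ratio and 11 in the Th1 ratio. Of all named genes, 8.17% and 29.8% were. In the difference 5 of the 26 were at least 2-fold negative, where 9.49% of all named genes were. Their median as deposited was 0.04 in the Th17 ratio and 0.06 in the Th1 ratio. Smyd5 came closest to a 2-fold difference at −0.999, with a Th17 ratio of −0.61 and a Th1 ratio of 0.39, and centring on the median of all probes brought that difference to −1.07, past 2-fold. Carm1, an arginine methyltransferase whose symbol the rule does not take in, had 0.06 and 0.76, and Hat1, which acetylates new histone H4, 0.16 and 0.87, both with the order of Prmt1 and Dnmt1.

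As deposited, 1 of 29 readers of acetylated or methylated histones and DNA was at least 2-fold apart in the Th17 ratio (3.45%). The share of all named genes was 8.42%. This reader was Cbx7, a polycomb reader, at −1.01, with a Th1 ratio of −0.80. In the Th1 ratio and the difference 0 readers were, where 10.2% and 8.14% of all named genes were. In the difference 22 of the 29 were negative, where 46.1% of all named genes were. Their median was −0.21 and turned to 0.07 when centred on control genes. The lowest was Mbd2, a methyl-DNA reader known for restraining cytokine genes, with a Th17 ratio of −0.54 and a Th1 ratio of 0.28, a difference of −0.82. The highest in the Th17 ratio was L3mbtl3, at 0.44.

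As deposited, of 49 complex partners, 1 was at least 2-fold apart in each ratio (2.04%), the same gene in both. The shares of all named genes were 8.42% in the Th17 ratio and 10.2% in the Th1 ratio. The partner was Dpy30, a subunit of the Kmt2 complexes, with a Th17 ratio of 1.13 and a Th1 ratio of 1.54. In the difference 2 partners were at least 2-fold apart (4.08%, against 8.14% of all named genes), both on the negative side. They were Sap30, a subunit of the Sin3 deacetylase complex, at −1.41 (−0.86 and 0.55), and Phf19. Paxip1, a partner of the Kmt2c complex, had the most positive difference, 0.82, with a Th17 ratio of 0.09 and a Th1 ratio of −0.73.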

How the data were processed

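Per the labels, column-purified total RNA (500 ng) was amplified and labelled by an amino allyl method. The deposited table holds 1 log2 ratio per probe and array for 36547 probes, as the authors processed them. That unit was read from the values. Scanner software, background correction and normalisation are not given in the sources used here, nor are scale constants, centring or direction of the ratio stated. The column medians were −0.05 (Th17 and Th0) and −0.11 (Th1 and Th0).

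The platform annotation was updated by gene number through a RefSeq gene list (GRCm38.p6, names only). Of the probes, 26926 carried 1 gene (26774 matched, 152 not, 0 symbols changed), 203 several and 9418 none, and only the first were used. Probes were averaged per gene with pandas 2.3.3 in Python 3.11.15. With 1 array a group no test was made. Members were called at an absolute log2 value of at least 1.

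A probe counted as possibly dim where its ratio, less the array's most repeated value (−0.43 and −0.85), matched within 0.00012 a whole-number ratio in lowest terms whose smaller term was at most 5. This held for 10 of 153 member probes (6.54%, against 4.82% of all probes), in 8 members. The search was tested on simulated data. Such a ratio can also arise in brighter probes.

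Members and lists were chosen with earlier results of these data known. Every member could be named. Of the other lists, genes at least 2-fold apart, the extremes, and genes sharing a complex or role with a member were named, the last chosen after their values were seen. Of the members, 75 matched a promoter window by symbol.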

Additional observations from a re-analysis of the deposited data

Results flagged for a closer look

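Hdac7 lay on opposite sides of the 2 arrays, with a Th17 ratio of 0.45 and a Th1 ratio of −1.16, and the difference of 1.61 was more than 2-fold. With 1 array each, this difference was not tested. It came from 1 of 2 probes, whose difference was 3.15 against 0.07 for the other.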

How the results depend on the processing

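No paired analysis was possible because each comparison has 1 array, and for the same reason no replicate could be left out. Turning the sign of both ratios exchanges the sides and leaves all sizes. At a 1.5-fold threshold 2 members were negative and 5 positive in the Th17 ratio (13.0% and 7.88% of all named genes), 7 and 10 in the Th1 ratio (16.5% and 9.49%), and 6 and 4 in the difference (9.33% and 11.2%). Centring on control genes gave 5 members at least 2-fold negative in the Th1 ratio (11.6% of all named genes). Centring on the most repeated value gave 0 members at least 2-fold negative and 6 positive in the Th17 ratio (2.78% and 8.17%). In the Th1 ratio it gave 0 and 37 (1.7% and 29.8%), and in the difference 6 at least 2-fold negative ones (9.49%). It also moved the medians of members, writers, erasers and the PRDM family to 0.46, 0.48, 0.40 and 0.21 in the Th17 ratio and to 0.88, 0.94, 0.78 and 0.91 in the Th1 ratio. Leaving out possibly dim probes gave 0 members at least 2-fold positive in the difference (3.84%) and dropped Eed and Hdac8, each with its only probe. The values hold no signal over background, so dim genes could be found only through whole-number ratios.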
